A study of Mus musculus with 15 samples.

Results

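The interaction of genotype and folic acid was measured across the kidney transcriptome: the folic acid effect in telomerase-deficient mice minus the folic acid effect in mice with telomerase. All 15 libraries of the series enter it, and no sample was left out. Folic acid at 125 mg per kg body weight or its vehicle, 200 µl of 0.3 M NaHCO3, was injected once into the peritoneum of mice aged 6 to 8 weeks, and saline-perfused kidneys were taken at day 14. Tert+/+ mice (WT) received vehicle (n = 4) or folic acid (n = 3), and Tert-/- mice of generation 3 (G3) received vehicle (n = 4) or folic acid (n = 4). Generation 3 refers to successive breeding without telomerase, and the strain is named in none of the sources used here. Of 19602 genes in the table, 14651 reached a normalised count of 10 in 3 or more libraries and were tested.

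As background, crystals and direct toxicity of folic acid injure the kidney tubule, and the injured epithelium can repair or go on to inflammation and fibrosis. Tert is the catalytic subunit of telomerase, and telomeres shorten over the generations bred without it. A mouse kidney also differs by sex: androgens set the level of many transporters and cytochrome P450 enzymes of the proximal tubule.

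Values below are normalised counts, and effects are differences of mean log2(normalised count + 1), which understate the change of genes with few reads. The difference adds the WT vehicle and G3 folic acid groups and subtracts the WT folic acid and G3 vehicle groups. A positive difference means that folic acid raised a gene more, or lowered it less, in G3 than in WT. In whole kidney RNA, fewer cells of a type and less RNA per cell cannot be told apart. Kidney markers were high in every library: the proximal tubule gene Lrp2 lay between 4109 and 12467 and the thick ascending limb gene Umod between 6649 and 19208 over all libraries. Sequencing depth was 5014684 to 6609307 reads per library.

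RNA from the sex chromosomes followed the groups of this contrast and not the labelled sex. Xist is transcribed from the inactive X chromosome of females, and Ddx3y, Kdm5d, Eif2s3y and Uty lie on the Y chromosome. The summed Y-linked count was 855, 283, 816 and 867 in the WT vehicle libraries and 694, 15.0, 668 and 273 in the G3 folic acid libraries. Folic acid libraries of WT held 29.5, 14.4 and 9.53, and vehicle libraries of G3 held 6.10, 0.977, 7.57 and 5.01. So 7 libraries held a Y-linked sum above 100, and all of them belong to the groups that enter the difference with a plus sign. Xist was 3027 in WT vehicle 2 and 2006 in G3 folic acid 4, which held both kinds of RNA. In 10 of the other libraries the RNA went against the labelled sex.

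**Figure D1:**
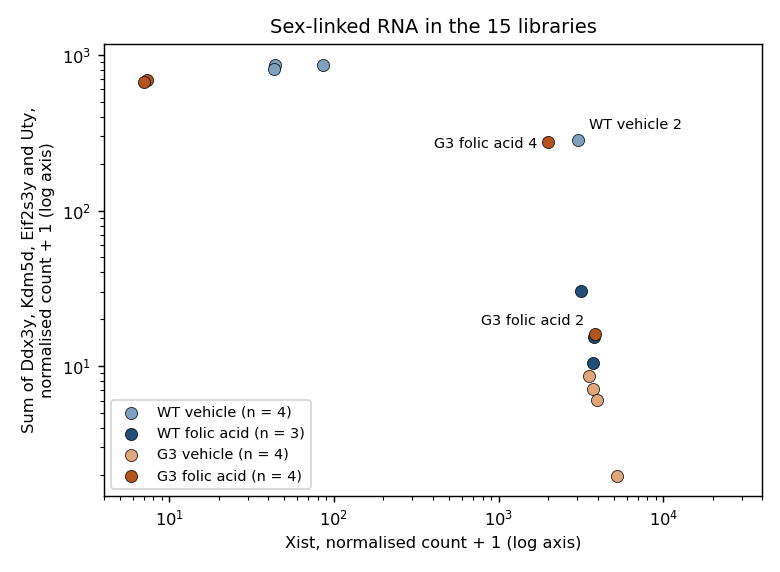
Xist (x axis) against the sum of 4 Y-linked genes (y axis), normalised count + 1 on log axes, one point per library and one colour per group. WT vehicle and G3 folic acid hold the points at the top left and the 2 points high in both, while every WT folic acid and G3 vehicle library lies at the lower right, beside G3 folic acid 2.

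The Y share, which is the Y-linked sum divided by that of the highest library, had a mean of 0.814 ± 0.325 (SD, n = 4) for the WT vehicle group and of 0.476 ± 0.378 (SD, n = 4) for the G3 folic acid group. The means of the other groups were 0.0205 (WT folic acid) and 0.00567 (G3 vehicle). The contrast applied to the Y share itself gave 1.26, made of a fall of 0.793 in WT and a gain of 0.470 in G3. The libraries poor in Y-linked RNA include no WT vehicle kidney, and those rich in it include no WT folic acid or G3 vehicle kidney. A difference within 1 of these kinds could therefore not be formed, and in these groups the sex-linked RNA and the difference of folic acid effects cannot be told apart. Values are from the fit with group terms only unless the Y share is named, in which case they come from a fit with the Y share as a further term.

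With group terms only, 560 genes passed the test (limma, Benjamini-Hochberg adjusted p under 0.05), or 3.82 percent of those tested. The difference was positive in 316 genes (2.16 percent) and negative in 244 (1.67 percent). Of the 560 genes, 547 had effects of opposite sign in WT and G3, which restates in part how they were selected, since a large difference favours opposite signs. Within a genotype, the effect of folic acid passed in 741 genes in WT (5.06 percent) and in 40 in G3 (0.273 percent). After folic acid the Y share also fell in WT and rose in G3, so these 2 counts do not compare the response to folic acid alone. Adding the Y share as a term left 2 genes, Pzp and Alas2 (0.0137 percent), and 407 genes had an unadjusted p under 0.05, against 2457 without it. The median standard error over all genes was 0.316 without the Y share and 0.527 with it. Among the 560 genes, 472 (84.3 percent) kept their sign, against 63.0 percent of all genes, and the median ratio of the difference with the term to that without it was 0.288. The Y share is only an approximate term, since it left the Y-linked genes themselves with large differences: Uty stood at 4.83 and Kdm5d at 4.85 on the log2 scale. The sample titles also carry numbers, which were grouped here into 3 series, from the lowest numbers (A) to the highest (C). The letters are not in the titles, and the sources used here do not give the meaning of the numbers. All 3 WT folic acid libraries are of series B and all 4 G3 folic acid libraries of series C. The WT vehicle group has 3 libraries of series B and 1 of C, and the G3 vehicle group 3 of A and 1 of C. With the series as a term 3 genes passed, all positive: Pzp at 10.19, Azgp1 at 6.45 and Apoh, a plasma glycoprotein, at 7.07. In this fit the WT effect compares libraries of series B and the G3 effect libraries of series C. The G3 effect then rests on 1 vehicle library, G3 vehicle 4, so that values with the series as a term are uncertain.

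**Figure D2:**
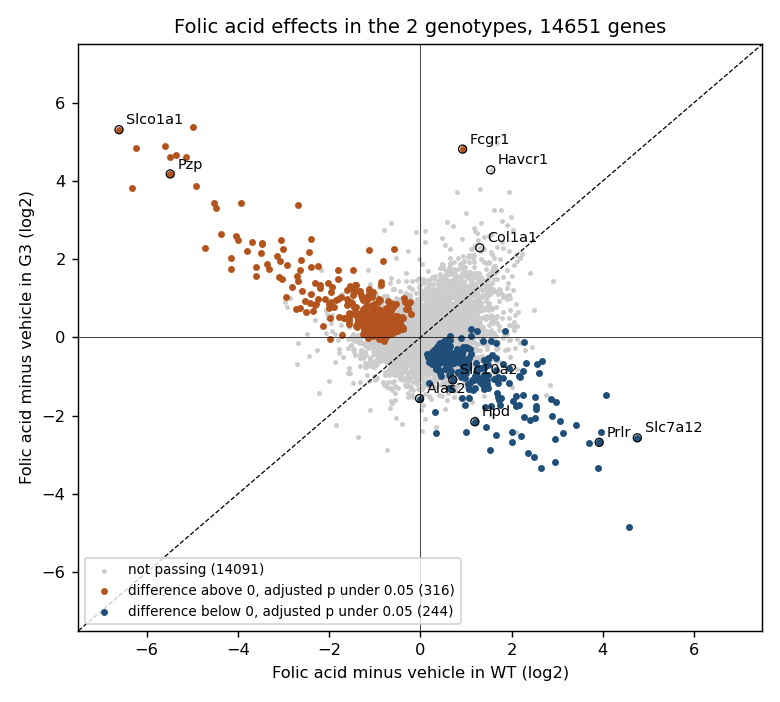
Folic acid minus vehicle in WT (x axis) against the same in G3 (y axis), both as log2, one point per tested gene, with genes that passed the test of the difference in colour. The genes that passed lie mostly in the upper left and lower right quadrants (547 of 560 had opposite signs), a place that choosing genes by this difference favours.

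G3 folic acid 2, the library of its group with a Y-linked sum of 15.0, was the lowest of the 4 in 264 of the 316 genes with a positive difference (83.5 percent, against 27.0 percent of all genes). It was the highest of the 4 in 158 of the 244 genes with a negative difference (64.8 percent, against 26.5 percent). WT vehicle 2, with both Xist and Y-linked RNA, was the lowest of its group in 255 of the positive genes (80.7 percent, against 30.9 percent) and the highest in 195 of the negative ones (79.9 percent, against 29.8 percent).

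The promoters of 3 genes are shown, chosen after their values were seen. Pzp and Alas2 passed in both fits. Slc10a2 is an example of the 12 genes among the 560 in which all 4 G3 folic acid libraries lay below all others, Insr being another. Of all 14651 tested genes 63 showed this order, and choosing genes by a negative difference favours it. The sequences are RefSeq's, in build GRCm38.p6, read 5′ to 3′ on the gene's strand and ending before the outermost annotated start. Capitals mark matches, on either strand, of AGAACA (half-site of the androgen and glucocorticoid receptors), TTCNNNGAA (STAT core), AGATAA (a motif of the erythroid factor family GATA) and GTTAAT (half-site of HNF1).
Pzp, chr6:128526721-128526970, minus strand: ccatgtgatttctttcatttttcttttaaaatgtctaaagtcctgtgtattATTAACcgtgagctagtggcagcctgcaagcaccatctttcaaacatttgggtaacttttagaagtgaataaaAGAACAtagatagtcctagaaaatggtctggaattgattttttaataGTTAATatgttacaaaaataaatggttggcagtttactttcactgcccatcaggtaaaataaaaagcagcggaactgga
Alas2, chrX:150547167-150547374, plus strand: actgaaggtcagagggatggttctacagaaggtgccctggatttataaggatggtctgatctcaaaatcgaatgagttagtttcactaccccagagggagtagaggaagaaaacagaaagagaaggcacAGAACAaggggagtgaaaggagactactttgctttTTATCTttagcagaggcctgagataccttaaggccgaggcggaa
Slc10a2, chr8:5105352-5105537, minus strand: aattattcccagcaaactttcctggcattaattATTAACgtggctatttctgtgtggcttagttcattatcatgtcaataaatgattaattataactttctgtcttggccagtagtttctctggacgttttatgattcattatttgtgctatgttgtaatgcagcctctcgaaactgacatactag
The Pzp stretch holds 1 AGAACA and 2 GTTAAT matches, that of Alas2 holds 1 AGAACA and 1 AGATAA, and that of Slc10a2 holds 1 GTTAAT. Such matches are common. Over the 10456 tested genes with a promoter in the table (250 bases before and 50 after the start), AGAACA occurred in 15.3 percent, AGATAA in 7.85 percent, TTCNNNGAA in 8.19 percent and GTTAAT in 6.11 percent. AGAACA occurred in 17.1 percent of the genes with a positive difference and 21.2 percent of those with a negative one, AGATAA in 12.8 and 15.6 percent, TTCNNNGAA in 7.69 and 13.4 percent, and GTTAAT in 10.7 and 8.94 percent. A match describes the letters of the window and shows no binding.

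Pzp (chromosome 6, 128483567 to 128526720, minus strand), a broad protease inhibitor of the alpha-2-macroglobulin family, had the smallest p of all named genes. It stood at 364, 193, 414 and 444 in WT vehicle and at 4.54, 10.6 and 5.72 in WT folic acid. In G3 it stood at 5.08, 7.82, 6.49 and 3.01 after vehicle and at 163, 43.2, 301 and 77.8 after folic acid. The lowest values of both high groups were those of WT vehicle 2 and of G3 folic acid 2, and the latter, poor in Y-linked RNA, still exceeded every G3 vehicle library. The log2 effect was -5.49 in WT and 4.18 in G3, a difference of 9.66 ± 0.68 (SE, limma adjusted p = 1.14e-06). Adding the Y share gave 6.60 ± 0.76 (SE, limma adjusted p = 0.00221). The difference of Pzp was 6.18 with the log2 Y-linked sum in its place and 5.72 with the Y share and without WT vehicle 2 and G3 folic acid 4. Neither passed, and in the latter the limma adjusted p was 0.345.

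Transporters and enzymes known for higher RNA in male kidney filled the positive end. Of 13 tested genes of a list of such genes, 11 had a positive difference that passed and 1, Serpina1f, a negative one of -2.09, with a list median of 6.99 against -0.01 over all genes. The remaining member, Kap, an androgen-regulated protein of the proximal tubule, had a difference of 1.74 (95% interval 0.72 to 2.77) and missed the threshold narrowly. No member passed with the Y share, and the list median was then 1.69. Slco1a1 (chromosome 6, 141907282 to 141946962), an organic anion transporter of the tubule, had the most positive difference. Its counts were 1524, 695, 1782 and 2005 in WT vehicle and 44.2, 5.76 and 8.58 in WT folic acid. They were 4.07, 1.95, 5.41 and 12.03 in G3 vehicle and 792, 4.70, 1323 and 514 in G3 folic acid. The G3 folic acid value of 4.70 belongs to the library poor in Y-linked RNA and lies within the G3 vehicle range. The difference was 11.92 ± 1.75 (SE, limma adjusted p = 0.00191), and 4.69 with the Y share, which did not pass. Slc7a13, a cystine and acidic amino acid transporter, had a difference of 11.10, and Acsm3, a medium-chain acyl-CoA synthetase, one of 10.14. The cytochromes P450 Cyp2j13, Cyp4b1 and Cyp4a12a stood at 10.11, 7.03 and 6.99, the oxysterol hydroxylase Cyp7b1 at 8.78, the glucuronosyltransferase Ugt2b37 at 9.76 and Slc22a30, of the organic anion transporter family, at 6.12. With the Y share these 8 stood at 3.36 (Slc7a13), 3.00 (Acsm3), 5.04 (Cyp2j13), 2.08 (Cyp4b1), 1.75 (Cyp4a12a), 1.69 (Cyp7b1), 5.22 (Ugt2b37) and 1.78 (Slc22a30). In each of these and in Slco1a1 G3 folic acid 2 was the lowest library of its group. Azgp1, zinc-alpha-2-glycoprotein, had a difference of 5.90 and Chst11, a chondroitin sulfotransferase, one of 5.28, with the Y share 3.22 and 2.76, neither of which passed. Members of the Cyp4a, Cyp2 and Ugt2b families share sequence, so their single values are less certain.

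**Figure D3:**
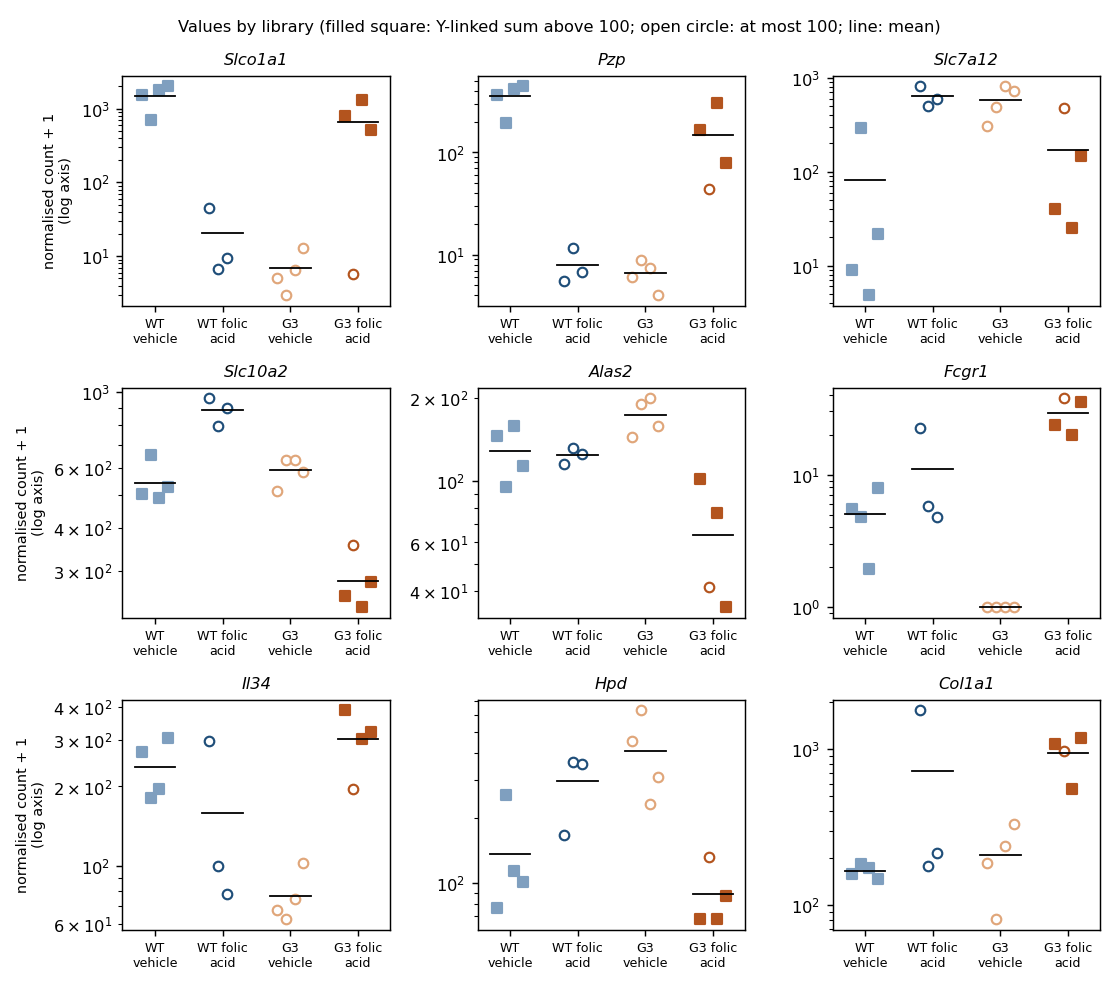
Normalised count + 1 (log axis) of selected genes in every library by group, with filled squares for a Y-linked sum above 100, open circles for at most 100, and a line at the group mean. In Slco1a1 the open circle of G3 folic acid lies with the G3 vehicle libraries. In Slc10a2 it lies below them and is the highest of its own group.

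Genes at the negative end included the transporters and receptors that female kidneys are known for. All 3 genes of the short list of such genes passed with a negative difference, and their median was -6.60 without and 0.44 with the Y share. Slc7a12 (chromosome 3, 14480697 to 14505830), an amino acid transporter, stood at 7.92, 293, 3.84 and 20.98 in WT vehicle and at 811, 494 and 594 in WT folic acid. It stood at 303, 486, 807 and 727 in G3 vehicle and at 39.0, 474, 24.0 and 148 in G3 folic acid. WT vehicle 2 and G3 folic acid 2 were the highest of their groups. Its difference was -7.32 ± 1.46 (SE, limma adjusted p = 0.0109) and 0.22 with the Y share. The prolactin receptor Prlr had a difference of -6.60, the fatty acid hydroxylase Cyp4a14 one of -5.57, histidine decarboxylase Hdc one of -6.38 and Slc17a2, of the phosphate transporter family, one of -6.39. These 4 changed sign with the Y share, to 0.63, 0.44, 1.95 and 0.66. Also negative were Cox8b, a cytochrome oxidase subunit, at -5.99, Ccdc170 at -5.54, the efflux transporter Abcc3 at -5.54, Slc22a29 at -4.73 and the hydroxysteroid dehydrogenase Hsd17b14 at -4.69. Of these Ccdc170, Abcc3 and Slc22a29 also changed sign with the Y share, to 0.50, 0.60 and 1.70, and Cox8b and Hsd17b14 stood at -1.07 and -0.89.

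**Figure D4:**
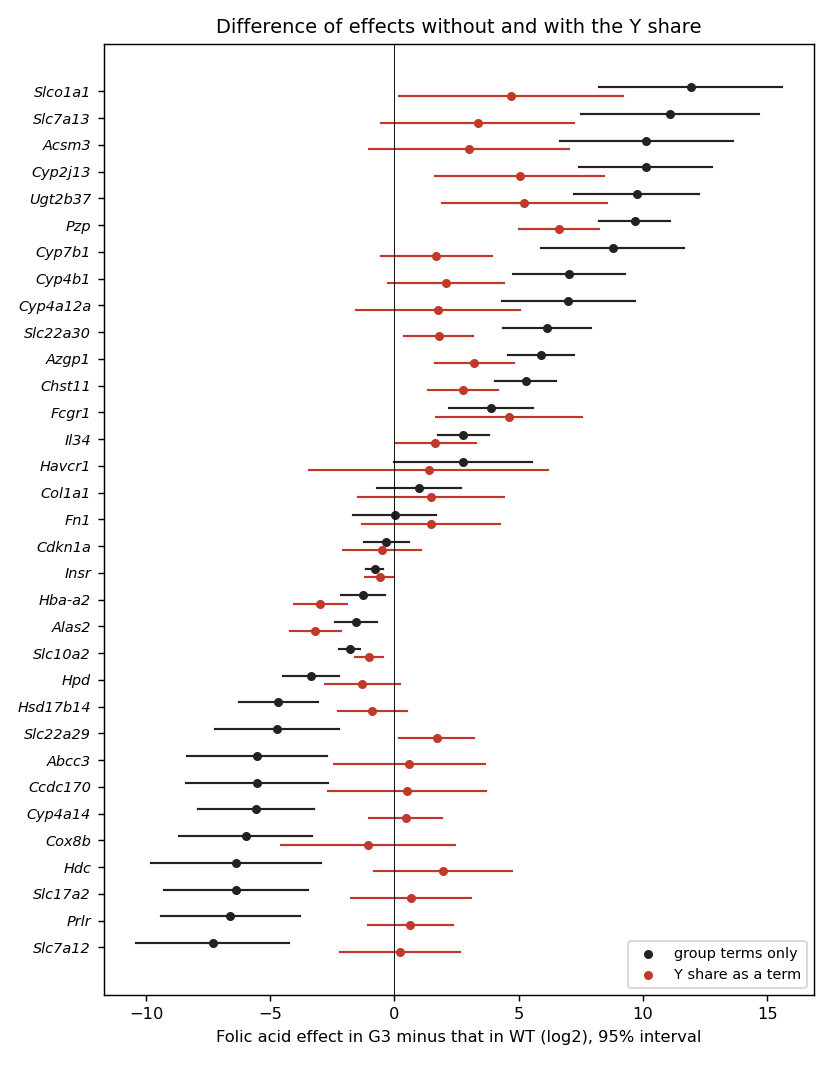
Folic acid effect in G3 minus that in WT (log2, points) with 95% intervals for named genes, fitted without and with the Y share as a term. Differences of Slco1a1 and Slc7a12 shrink with the term (11.92 to 4.69 and -7.32 to 0.22), while that of Alas2 grows from -1.54 to -3.19.

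Slc10a2 (chromosome 8, 5083219 to 5105351), the sodium-dependent bile acid transporter of ileum and proximal tubule, stood at 501, 653, 488 and 525 in WT vehicle and at 958, 796 and 898 in WT folic acid. In G3 it stood at 514, 630, 633 and 583 after vehicle and at 252, 357, 234 and 277 after folic acid. All 4 G3 folic acid libraries, the Y-poor one included, lay below every other library, and all 3 WT folic acid libraries lay above every other one. As in Slc7a12, WT vehicle 2 and G3 folic acid 2 were the highest of their groups. The log2 effect was 0.71 in WT (limma adjusted p = 0.0165) and -1.09 in G3 (limma adjusted p = 0.00215), and the difference was -1.80 ± 0.20 (SE, limma adjusted p = 0.000322). The Y share as a term gave -1.02 (95% interval -1.58 to -0.46), which did not pass after adjustment over all genes. The effects within the genotypes were then 0.22 in WT and -0.80 in G3. With the title series Slc10a2 stood at -1.77 (limma adjusted p = 0.0534).

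In G3 the erythroid genes Alas2 and Hba-a2 fell after folic acid, by 1.56 and 1.53 on the log2 scale (limma adjusted p = 0.0252 and 0.0377). Alas2 (chromosome X, 150547375 to 150570638), the erythroid enzyme that starts haem synthesis, stood at 145, 93.8, 157 and 112 in WT vehicle and at 115, 131 and 124 in WT folic acid. It stood at 143, 189, 198 and 157 in G3 vehicle and at 101, 40.4, 75.9 and 34.0 in G3 folic acid, where every library lay below every G3 vehicle library. The difference was -1.54 ± 0.40 (SE, limma adjusted p = 0.0370), and -3.19 ± 0.49 once the Y share was a term (SE, limma adjusted p = 0.0426). The effect in WT was -0.02 without and 1.01 with the Y share, and that in G3 -1.56 and -2.17. No WT vehicle library was poor in Y-linked RNA, so that the fitted rise in WT goes beyond the observed libraries. Without the Y share the difference did not pass when any of 8 single libraries was left out (limma adjusted p up to 0.0862). Nor did Alas2 pass with the title series (-1.38, limma adjusted p = 0.489) or with the labelled sex (-1.47, limma adjusted p = 0.145). In fits with the Y share the difference of Alas2 lay between -3.25 and -3.15 but missed the threshold with TMM scaling (limma adjusted p = 0.0579), in edgeR (quasi-likelihood adjusted p = 0.107) and without WT vehicle 2 and G3 folic acid 4 (limma adjusted p = 0.266). The alpha-globin Hba-a2 had a difference of -1.27 (limma adjusted p = 0.109), and -2.98 with the Y share (limma adjusted p = 0.0996). Of 6 tested erythroid genes 1 passed, where 3.82 percent of all genes passed. All 6 were negative, with a median of -1.10, where 48.6 percent of all tested genes were positive. With the Y share the median was -2.94, and 1 gene was positive, Slc4a1 at 0.32. Slc4a1 is also a gene of the intercalated cells of the kidney. The kidneys were perfused before harvest, and whether blood left in the tissue has a part in these values was not tested.

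Injury and fibrosis are named in the title of the series. None of 31 interstitial matrix genes passed in limma (2 had an unadjusted p under 0.05), with a median difference of 0.07, and of 0.66 with the Y share. With that term 25 of the 31 were positive, against 17 without it, and none passed. None of 15 genes of the epithelial to mesenchymal transition passed in limma either (3 had an unadjusted p under 0.05), with a median of -0.31, and of 0.02 without WT folic acid 1. Over all tested genes 3.82 percent passed, so that a count of 0 in lists this short is near the background. Col1a1, a chain of type I collagen, stood at 158, 183, 173 and 146 in WT vehicle, at 1769, 178 and 214 in WT folic acid, at 185, 80.1, 237 and 331 in G3 vehicle and at 1075, 968, 556 and 1175 in G3 folic acid. All 4 G3 folic acid values exceeded every G3 vehicle value, whereas in WT 1 folic acid library, WT folic acid 1, stood far above the others. The difference was 0.99 (95% interval -0.70 to 2.68, limma adjusted p = 0.582), and without WT folic acid 1 it was 2.05 and passed (limma adjusted p = 0.0308). The matrix list median was 0.77 without that library, in which the ribosomal-repeat transcript Gm42418 also held 23.0 percent of reads, against 4.85 to 8.15 percent elsewhere. Fibronectin Fn1 had a difference of 0.00 (95% interval -1.67 to 1.67) and vimentin Vim one of -0.38. Tgfb2, a ligand of the TGF-beta pathway, was the sole member of 18 of that pathway to pass, at -2.19, and stood at 0.56 with the Y share. Npnt, nephronectin, was the sole member to pass of 20 basement membrane genes, at -2.001 and 0.06 with the Y share.

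Of 21 tested genes of the injury and failed repair list 1 passed, Il34, near the 3.82 percent of all genes. The list median was 0.29, and 0.64 without WT folic acid 1. Havcr1, which encodes KIM-1 on injured proximal tubule, stood at 2.26, 0, 1.92 and 4.995 in WT vehicle, at 44.2, 4.80 and 0.953 in WT folic acid, at 0, 0, 3.25 and 9.02 in G3 vehicle and at 80.8, 58.2, 22.0 and 53.7 in G3 folic acid. The G3 folic acid libraries did not overlap the G3 vehicle ones, and in WT 1 of 3 was high. How common such a separation is among all tested genes was not counted. Havcr1 reached the count needed for testing only in the G3 folic acid libraries and in WT folic acid 1. It thus entered the test through the group where it is high, and its test supports nothing. The difference was 2.74 (95% interval -0.04 to 5.52, limma adjusted p = 0.304), and 3.99 without WT folic acid 1 (limma adjusted p = 0.0712). Lcn2, the injury protein NGAL, had a difference of 1.08 (limma adjusted p = 0.752). Without WT folic acid 1 that of Lcn2 was 2.67 (limma adjusted p = 0.178), without WT folic acid 2 or 3 it was 0.25 or 0.30, and without WT vehicle 2 or G3 folic acid 3 it was 1.67 or 1.68. Lcn2 without WT vehicle 1 or G3 vehicle 2 stood at 0.68 or 0.55. Il34, a ligand of the Csf1 receptor made by tubule cells (chromosome 8, 110741829 to 110805924) stood at 269, 180, 195 and 304 in WT vehicle, at 296, 98.9 and 77.2 in WT folic acid, at 67.1, 61.5, 73.6 and 101 in G3 vehicle and at 389, 195, 303 and 321 in G3 folic acid. Its difference was 2.77 ± 0.48 (SE, limma adjusted p = 0.00506), and 1.64 with the Y share, which did not pass.

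Of 21 tested macrophage genes all had a positive difference, against 48.6 percent of all tested genes, and 1 of them passed. The list median was 0.78 against -0.01 over all genes, and of 1.26 with the Y share. The one that passed was Fcgr1 (chromosome 3, 96282909 to 96293969), the high-affinity IgG receptor. It had no read in any G3 vehicle library, where a count of 0 allows up to 3 reads per library, and stood at 22.7, 36.6, 19.0 and 34.0 in G3 folic acid. It stood at 4.52, 3.79, 0.959 and 6.99 in WT vehicle and at 21.6, 4.80 and 3.81 in WT folic acid. Fcgr1 reached a count of 10 in 5 libraries, the 4 of G3 folic acid and 1 other, WT folic acid 1, so that it entered the test through the group where it is high, and its call supports nothing. The fitted difference of 3.89 depends on the added count of 1, since 1 group is at 0, and it is no bound. It was 2.10 with 5 added. The mean log2 level of the macrophage list was 5.62 to 7.22 in G3 folic acid, 4.63 to 5.22 in G3 vehicle, 4.66 to 4.87 in WT vehicle, and 7.29, 4.99 and 4.75 in WT folic acid. Without WT folic acid 1 the median difference was 1.498. None of 7 T and NK cell genes and 5 neutrophil genes passed. Of 19 interferon-stimulated genes 1 did, the guanylate-binding protein gene Gbp3, at -3.27, and of 11 chemokines and cytokines 1 did, Il18, at 2.17. Over all tested genes 3.82 percent passed, so that 1 gene in lists this short is near the background.

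Proliferation genes were positive in 16 of 18, against 48.6 percent of all tested genes, with a median of 0.68, and of 1.03 without WT folic acid 1. Of the 18 only the spindle gene Nusap1 passed, at 2.51 (limma adjusted p = 0.00451), where 3.82 percent of all genes passed. With the Y share Nusap1 stood at 1.35 and did not pass. The kinetochore gene Cenpf did not pass, at 0.98 (limma adjusted p = 0.228), though its effect in G3 alone was 1.67 (limma adjusted p = 0.0252). Of 18 p53 targets 2 passed, the stress cytokine Gdf15 at 1.19 and cyclin G1 Ccng1 at 0.92, where 3.82 percent of all genes passed. With the Y share Gdf15 stood at 0.12 and Ccng1 at 0.14, and neither passed. Without 1 library they failed in 11 and 13 of 15 fits. Cdkn1a, the p21 inhibitor, had a difference of -0.33 (limma adjusted p = 0.754). Of 20 telomerase, shelterin and DNA damage genes 1 passed, Nhp2, a protein of the telomerase ribonucleoprotein, at 1.74, and -0.04 with the Y share. Tert itself had 2.93 to 22.6 normalised counts over all libraries, overlapping between the genotypes, so that in the 3′-end reads it does not check the genotype labels, and its difference was -0.13 (limma adjusted p = 0.960).

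Metabolic and tubule genes passed in both directions, where 3.82 percent of all tested genes passed. Among proximal tubule genes the anion transporter Slc22a6 stood at 2.36 and Ggt1, gamma-glutamyltransferase, at 1.35, while the endocytic receptor Lrp2 stood at -1.21 (3 of 22). Of 22 fatty acid oxidation genes 1 passed with a positive difference and 3 with a negative one. The negative ones were the fatty acid hydroxylase Cyp4a10 at -1.54, Hadhb, of the mitochondrial trifunctional protein, at -0.75, and the coactivator Ppargc1a at -0.63. Of 14 insulin signalling genes 3 were negative and passed: the receptor Insr at -0.80, the transcription factor Foxo3 at -1.08 and the binding protein Igfbp1 at -2.07. Insr stood at 229 to 292 in WT vehicle, 270 to 290 in WT folic acid and 295 to 303 in G3 vehicle, and the 4 G3 folic acid libraries (181, 178, 210 and 213) lay below all others. Its difference was -0.59 with the Y share and did not pass. In the folate and one-carbon list Shmt2 and Ftcd stood at 1.34 and 2.83 and Shmt1 at -1.34 (3 of 18), and in the glutathione list Gsta2 and Gsta4 at -2.79 and -3.88 (2 of 14). Egf, made by the distal tubule, stood at -1.03, the respiratory chain gene Uqcrc1 at -0.68 and the unfolded protein response gene Herpud1 at -0.83. Hpd, an enzyme of tyrosine breakdown, stood at -3.35 and the water channel Aqp4 of the collecting duct at -2.71. Hpd with the Y share stood at -1.30, Aqp4 at -1.39 and Igfbp1 at -1.56, and none of them passed. In that fit Gsta4 stood at -0.05, Slc22a6 at 0.46, Lrp2 at -0.38, Cyp4a10 at -0.58, Shmt1 at -0.53 and Egf at -0.57. Uqcrc1 and Herpud1 then stood at -0.77 and -1.13, and none of these passed either.

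**Figure D5:**
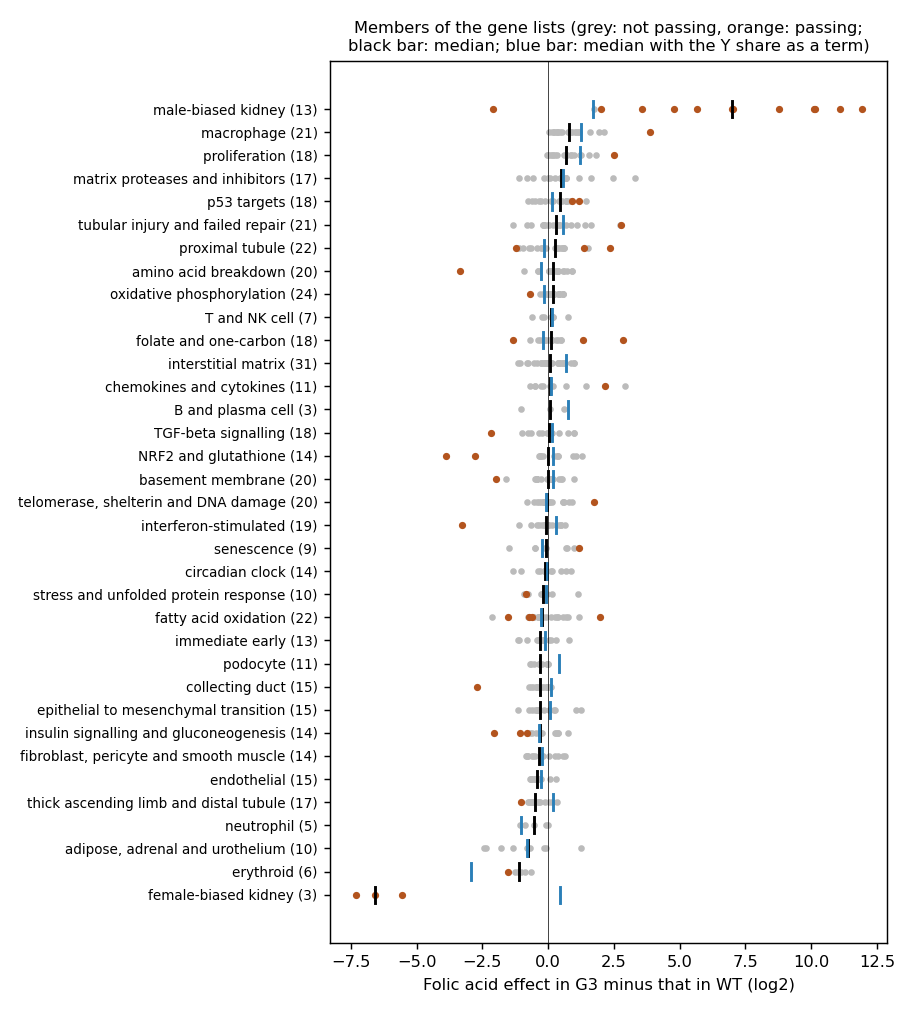
Folic acid effect in G3 minus that in WT (log2, x axis) for each tested member of the gene lists (rows), with orange for genes that passed, black bars for list medians and blue bars for medians with the Y share as a term. Without the Y share the male-biased and female-biased lists lie farthest from 0 (medians 6.99 and -6.60), and the interstitial matrix list is centred near 0 (median 0.07). With it the matrix median is 0.66.

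Replicates came from animals that the labels do not number across groups, and p-values measure the spread between these libraries. Genes of adipose tissue, which can be carried along with kidney, varied by library: Adipoq was 297 in G3 vehicle 1 and 0 to 43.0 in the others. None of the 10 tested adipose, adrenal and urothelium genes passed, and their part in the results was not tested.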

How the data were processed

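Whole-kidney RNA was sequenced from the 3′ end with a stranded kit, per the labels' protocols; RNA quality scores averaged 6.3 (4.7 to 8.0). Per the submitters' processing notes, FastQC 0.11.7, TopHat2 2.0.10, Bowtie 1.0.0, SAMtools 0.1.19, HTSeq 0.6.1 and DESeq2 were used with GRCm38. The deposited table holds a signal, the authors' normalised counts per gene; every value was a whole multiple of its library's step (100 percent within 0.001). Dividing by the step gave the reads used in edgeR 4.0.16, DESeq2 1.42.0 and TMM; in 3 libraries the step is within 1 percent of 1, so that whole reads are less surely recovered there.

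The difference was fitted on log2(value + 1) using limma 3.58.1 (R 4.3.3) and its mean-variance trend, 1 term per group, all 15 libraries and Benjamini-Hochberg adjustment over 14651 genes. The labelled sex was left out because Xist and Y-linked RNA go against it; the Y share was added instead in a second fit. No 2 libraries agreed within sampling noise (mean chi-square per gene at least 2.88). Of the symbols 19509 matched GENCODE M21, the source of gene positions. The fit with group terms only was tested on simulated counts, with genes changed in G3 folic acid alone and no sex-linked shift. The fits with the Y share or the title series were not tested in this way. Gene lists, the panel of named genes and the tests were chosen with earlier results of these data known. Named genes were the 10 most positive and 10 most negative that passed with a mean of at least 20, without Xist, Y-linked genes and predicted models, 5 each way from the Y share fit, filled by smallest p, the gene of smallest p in each list (2 in focal lists), and a panel of 14 genes. One gene is not reported here.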

Additional observations from a re-analysis of the deposited data

Results flagged for a closer look

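Of 231 gene and group combinations of 4 libraries among the named genes, 29 held a library far from the other 3 by Dixon's test, where chance flags about 1 in 20, or 11.55. WT vehicle 2, which held both Xist and Y-linked RNA, gave 18 of them. It stood high, with the other 3 WT vehicle libraries below, in Slc7a12 (293 against 3.84 to 20.98), Prlr (1597 against 49.8 to 104), Slc17a2 (27.5 against 0.00 to 3.84), Hdc (351 against 4.8 to 12.99), Cox8b (36.0 against 2.88 to 6.99), Cyp4a14 (547 against 36.2 to 66.9) and Slc22a29 (119 against 5.65 to 20.1). The same held for Npnt (2407 against 887 to 1085), Tgfb2 (78.7 against 22.0 to 30.5), Gbp3 (97.6 against 14.4 to 24.9), Plce1 (122 against 74.6 to 81.6), Insr (292 against 229 to 237), Gsta4 (238 against 63.3 to 74.8) and Fn1 (79.6 against 36.2 to 41.0). It stood low in Slc7a13 (999 against 4324 to 4484), Acsm3 (897 against 2507 to 2743), Cdh2 (31.3 against 59.9 to 65.2) and Cyp2d9 (237 against 672 to 736). In G3 folic acid 2 an outlying value was found for Slc17a2 at 31.9 against 0.908 to 4.47 and Ccdc170 at 59.2 against 1.998 to 11.6. In G3 vehicle 1 an outlying value was found for Cox8b at 193 against 44.1 to 63.8, Acta2 at 377 against 272 to 283, Ccl5 at 33.6 against 15.6 to 17.0 and Plce1 at 110 against 90.9 to 93.2. In G3 vehicle 2 an outlying value was found for Cyp4a14 at 2861 against 1239 to 1425, Slc22a29 at 187 against 111 to 123 and Hba-a2 at 15806 against 11199 to 11744. In WT vehicle 1 an outlying value was found for Ccl5 at 7.92 against 10.99 to 11.5. In G3 folic acid 1 an outlying value was found for Il18 at 21.8 against 14.1 to 15.0. 

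The test of the difference passed in 48 of the 77 named genes (limma adjusted p under 0.05), against 3.82 percent of all tested genes. Many genes were named because they passed this test, so that choice largely fixed the count, which is no result. Fcgr1 is counted though it entered the test through the group where it is high. In these genes, too, the sex-linked RNA and the difference of folic acid effects cannot be told apart. The values are the effect in G3 minus that in WT on the log2 scale. With the Y share as a term only Pzp and Alas2 of the 48 passed. Among the positive differences, the larger were those of Slco1a1 (11.92), Slc7a13 (11.10), Acsm3 (10.14), Cyp2j13 (10.11), Ugt2b37 (9.76), Pzp (9.66), Cyp7b1 (8.78), Cyp4b1 (7.03), Cyp4a12a (6.99), Slc22a30 (6.12), Azgp1 (5.90), Chst11 (5.28) and Cyp2d9 (4.78). The smaller positive ones were those of Fcgr1 (3.89), Il34 (2.77), Nusap1 (2.51), Slc22a6 (2.36), Il18 (2.17), Nhp2 (1.74), Gdf15 (1.19), Limk1 (1.16), Clmp (1.13) and Ccng1 (0.92). Among the negative differences, the larger were those of Slc7a12 (-7.32), Prlr (-6.60), Slc17a2 (-6.39), Hdc (-6.38), Cox8b (-5.99), Cyp4a14 (-5.57), Ccdc170 (-5.54), Abcc3 (-5.54), Slc22a29 (-4.73) and Hsd17b14 (-4.69). The smaller negative ones were those of Gsta4 (-3.88), Hpd (-3.35), Gbp3 (-3.27), Aqp4 (-2.71), Tgfb2 (-2.19), Npnt (-2.001), Slc10a2 (-1.80), Alas2 (-1.54), Cyp4a10 (-1.54), Shmt1 (-1.34), Lrp2 (-1.21), Egf (-1.03), Herpud1 (-0.83), Insr (-0.80) and Uqcrc1 (-0.68).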

How the results depend on the processing

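With group terms only 560 genes passed. Counted over all tested genes, the number passing was 2 with the Y share as a term, 3 with the Y share and without WT folic acid 1 (2 of them among the 560), 0 with the Y share and without WT vehicle 2 and G3 folic acid 4 (562 genes at an unadjusted p under 0.05 in limma), 1 with TMM scaling and the Y share, 1 in edgeR with the Y share, and 0 in limma with the log2 Y-linked sum (385 at an unadjusted p under 0.05), an alternative chosen after the values were seen. With the labelled sex as a term 103 passed, 99 of them among the 560, and with the title number series 3 passed. Without the 2 libraries that held both Xist and Y-linked RNA 966 passed, 534 of them among the 560. No mean-variance trend gave 292 genes and library weights gave 1548. Pseudocounts, filters, scalings, edgeR and DESeq2 without a Y term gave 549 to 812. The cause of these shifts was not tested. A further term or fewer libraries leaves fewer degrees of freedom, and the part of this in the shifts was not tested either. Leaving out 1 library gave 253 (without WT vehicle 4) to 926 (without WT vehicle 2). The count moved by over 1.5 times without WT vehicle 1 (276) and 3 (329), WT folic acid 2 (301) and 3 (260), and G3 folic acid 1 (288), 2 (858) and 3 (308). In all 15 such fits 217 of the 560 genes passed, among them 32 of the 48 named genes that passed. Those that failed in at least 1 were Abcc3, Alas2, Ccdc170, Ccng1, Clmp, Cox8b, Egf, Gdf15, Hdc, Herpud1, Limk1, Lrp2, Nhp2, Slc22a29, Tgfb2 and Uqcrc1, with limma adjusted p up to 0.113. No paired analysis was possible because the labels give no replicate numbers, and those used here follow accession order.

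Named genes whose difference changed sign are given on the log2 scale. The Y share gave Slc7a12 0.22, Prlr 0.63, Slc17a2 0.66, Hdc 1.95, Cyp4a14 0.44, Ccdc170 0.50, Abcc3 0.60, Slc22a29 1.70, Col5a2 0.16, Thbs1 0.12, Npnt 0.058, Tgfb2 0.56, Prom1 0.55, Gbp3 0.15, Nhp2 -0.043, Plce1 0.41 and Junb -0.12. TMM scaling and the Y share gave Slc7a12 0.23, Prlr 0.65, Slc17a2 0.68, Hdc 1.97, Cyp4a14 0.46, Ccdc170 0.51, Abcc3 0.61, Slc22a29 1.71, Col5a2 0.17, Thbs1 0.13, Npnt 0.070, Tgfb2 0.57, Prom1 0.56, Mzb1 0.0018, Gbp3 0.16, Nhp2 -0.031, Plce1 0.43 and Junb -0.11. In edgeR the Y share gave Slc7a12 0.29, Prlr 0.72, Slc17a2 1.29, Hdc 2.13, Cyp4a14 0.34, Ccdc170 0.61, Abcc3 0.22, Slc22a29 1.61, Col5a2 0.10, Thbs1 0.088, Npnt 0.14, Cdh2 -0.20, Tgfb2 0.46, Prom1 0.56, Gbp3 0.17, Nhp2 -0.046, Plce1 0.43, Junb -0.084 and Lcn2 -0.31. Leaving out WT folic acid 1 and adding the Y share gave Slc7a12 0.47, Prlr 0.55, Slc17a2 0.74, Hdc 1.47, Cyp4a14 0.29, Ccdc170 0.29, Abcc3 1.22, Slc22a29 1.43, Col5a2 0.34, Thbs1 0.27, Npnt 0.14, Cdh2 -0.44, Tgfb2 0.92, Prom1 0.59, Mzb1 0.66, Gbp3 0.43, Plce1 0.32, Tert 0.22 and Vim 0.27. Leaving out WT vehicle 2 and G3 folic acid 4 and adding the Y share gave Slco1a1 -2.56, Slc7a13 -2.81, Acsm3 -3.60, Cyp2j13 -0.71, Ugt2b37 -0.51, Cyp7b1 -0.65, Cyp4b1 -2.05, Cyp4a12a -4.07, Slc22a30 -0.18, Slc17a2 0.64, Ccdc170 1.09, Slc22a29 1.56, Acta2 0.27, Tgfb2 0.33, Prom1 0.035, Mzb1 0.26, Cxcr2 0.18, Gdf15 -0.24, Nhp2 -0.41, Slc22a6 -0.22 and Plce1 0.30. The log2 Y-linked sum gave Slco1a1 -1.69, Slc7a13 -2.26, Acsm3 -2.88, Cyp7b1 -1.15, Cyp4b1 -1.05, Cyp4a12a -2.42, Slc7a12 0.44, Prlr 1.38, Slc17a2 1.43, Hdc 1.87, Cyp4a14 1.77, Ccdc170 1.87, Abcc3 0.25, Slc22a29 3.09, Col5a2 0.38, Tgfb2 0.49, Prom1 0.49, Ccl5 -0.14, Cxcr2 1.09, Gbp3 0.30, Gdf15 -0.43, Ccng1 -0.095, Nhp2 -0.93, Plce1 0.59, Shmt1 0.084, Junb -0.83, Gsta4 1.07, Havcr1 -0.016, Lcn2 -1.79, Col1a1 -0.46, Fn1 -0.19 and Cdkn1a 0.20. Without a Y term the sign changed only in genes that did not pass: in edgeR Tert 0.039, Lcn2 -0.23 and Fn1 -0.65, in DESeq2 Tert 0.023, Lcn2 -0.24 and Fn1 -0.67, with the title series Tert 0.056, Fn1 -0.83 and Cdkn1a 0.31, with the labelled sex Fn1 -0.64, with a pseudocount of 5 Fn1 -0.0063, with library weights Vim 0.10 and without WT vehicle 2 and G3 folic acid 4 Fn1 -0.30. Over fits without 1 library, Fn1 ranged from -0.47 to 0.91, Tert ranged from -0.51 to 0.35, Vim ranged from -0.59 to 0.021. Genes with few reads are limited by depth, as 1 read was worth 0.895 to 1.13 normalised counts.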
